A study of Mus musculus with 12 samples.

Results

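Cd3d, Cd3e, Cd3g, Cd4, Cd8a, Nkg7, Gzma, Gzmb, Klrb1c and Il2rb, 10 genes that mark T cells and natural killer (NK) cells, were read in 12 libraries of polyA RNA from mouse liver. They were chosen by gene symbol, and all 10 were among the 16970 genes of the deposited table of FPKM values (fragments scaled to gene length and library depth). The livers came from mice with cholestasis, in which bile does not leave the liver as it should, in 4 groups of 3 libraries titled MDR_H, MDR, BDL_H and BDL. In BDL the bile duct had been ligated for 7 days. BDL_H had the same ligation and was dosed with HDCA, the bile acid hyodeoxycholic acid, at 100 mg/kg for 4 days, starting 3 days after surgery. MDR and MDR_H were taken as the Abcb4-/- model, which lacks the transporter that moves phosphatidylcholine into bile. The series description names this genotype as the second model, but no library title does. MDR_H received HDCA at 100 mg/kg for 21 days. The description gives 60 days as the age of the dosed Abcb4-/- mice, taken here for MDR as well, and no age for BDL_H or BDL. Strain, sex and the route of dosing are not stated in the labels. Unoperated wild-type liver was not analysed here, so no value below is relative to a healthy liver. The labels do not tie replicates to separate mice. The p-values therefore reflect library-to-library spread, which may be technical.

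T cells recognise antigen through a receptor whose signal is carried into the cell by the CD3 chains, helped by the co-receptors CD4 or CD8. NK cells and cytotoxic T cells kill target cells with granules that hold granzymes. Mouse liver normally holds resident NK cells, innate lymphoid cells and NKT cells beside conventional T cells, and lymphocytes gather around injured bile ducts in cholestatic disease. In RNA from whole tissue, fewer cells of a type and less RNA per cell cannot be told apart.

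The libraries held 34260782 to 40427855 reads, recovered from the steps of the FPKM values, and the 10 genes rested on few of them. A gene had between 0 reads (Cd3d in BDL replicate 1, Cd8a in BDL_H replicate 2) and 311 reads (Il2rb in MDR replicate 2). Mean FPKM over the 12 libraries ran from 0.181 for Cd8a to 1.42 for Cd3g, which are percentiles 24.8 and 43.3 of the genes in the table. By the rule that a row with fewer than 10 reads in every library is too low to read, none of the 10 was too low. Single libraries were: Cd3d had fewer than 10 reads in 5 libraries, Cd8a in 4, Nkg7, Gzmb and Klrb1c in 3 each, Cd3e in 2 and Gzma in 1. Cd3g, Cd4 and Il2rb had at least 10 reads in every library.

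Several facts of the libraries touch every value below. BDL replicate 1 and BDL_H replicate 2 stood apart, their medians on the log2(FPKM + 1) scale being 2.48 and 2.56, while the other 10 libraries had medians of 2.81 to 3.06. Summed FPKM of 4 Y-linked genes was 16.1 to 20.1 in all BDL and BDL_H libraries and in MDR replicate 1, and 0 to 0.016 in the other 5 MDR and MDR_H libraries. Apart from MDR replicate 1, the Y-linked reads follow the model, and the 2 cannot be told apart. Ages in the BDL groups are not stated, so whether age also follows the model is not known. Abcb4 itself was at 129.1 to 165.3 FPKM in MDR_H, 150.1 to 181.3 in MDR, 72.1 to 178.4 in BDL_H and 52.8 to 167.8 in BDL. The MDR and MDR_H values lay within the range of the BDL and BDL_H values or just above it. Since a disrupted allele may still be transcribed, this value does not check the titles. Summed FPKM of 9 hepatocyte genes ran from 34129 to 51134 in MDR_H, 37475 to 44083 in MDR, 49806 to 64797 in BDL_H and 53233 to 58059 in BDL, so the defining genes of hepatocytes were abundant in every library.

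The 3 CD3 genes lie together on mouse chromosome 9 (GRCm38, GENCODE M21). Cd3g (chr9:44969572-44980431, minus strand) and Cd3d (chr9:44981786-44987339, plus strand) start head to head, with 1354 bases between them, and Cd3e (chr9:44998740-45009627, minus strand) follows 11400 bases further on. Exons of Cd3e overlap those of the predicted gene Gm48719 on the other strand, and Klrb1c exons overlap those of Gm44511 on the same strand. Strand could separate Cd3e from its neighbour but not Klrb1c. Whether the counting used strand, and how it treated reads that overlap 2 genes, is not stated. How far the overlaps touch the Cd3e and Klrb1c values is therefore not known. Cd4 (chr6:124864692-124888221, minus) and Cd8a (chr6:71373427-71379173, plus) are on chromosome 6 with Klrb1c (chr6:128778485-128789215, minus). Nkg7 is at chr7:43437073-43438249 (plus), Gzma at chr13:113093825-113100981 (minus), Gzmb at chr14:56258838-56262260 (minus) and Il2rb at chr15:78479256-78495271 (minus). All 10 are protein-coding.

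The 250 bases upstream of the start were read from RefSeq (GRCm38.p6) for the 8 of 10 genes that had an entry; Cd4 and Il2rb had none. They were searched on both strands for CACCTG, a form of the E box that E proteins bind in lymphocytes, and TGTGGT, the core that RUNX factors bind. CACCTG was in 3 of the 8 windows (Cd3d, Cd3g and Gzma) and in 17.22% of all 32851 windows of that length. TGTGGT was in 4 of the 8 (Nkg7, Gzma, Gzmb and Klrb1c) and in 14.05% of all. The letters searched share no overlap in these windows, and a match is a description of the sequence, not a site. The windows of the head-to-head CD3 genes and of the 2 granzymes are printed here because they hold these matches and because the results below turn on these genes. Each runs 5′ to 3′ on the strand of its gene, with CACCTG or TGTGGT, or its reverse complement, in capitals: Cd3d at chr9:44981536-44981785, Cd3g at chr9:44980432-44980681, Gzma at chr13:113100982-113101231 and Gzmb at chr14:56262335-56262584.
Cd3d: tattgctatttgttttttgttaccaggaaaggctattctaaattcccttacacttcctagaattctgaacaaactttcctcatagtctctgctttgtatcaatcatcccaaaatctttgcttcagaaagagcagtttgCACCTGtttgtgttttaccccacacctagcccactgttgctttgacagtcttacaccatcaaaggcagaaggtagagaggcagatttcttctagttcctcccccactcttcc
Cd3g: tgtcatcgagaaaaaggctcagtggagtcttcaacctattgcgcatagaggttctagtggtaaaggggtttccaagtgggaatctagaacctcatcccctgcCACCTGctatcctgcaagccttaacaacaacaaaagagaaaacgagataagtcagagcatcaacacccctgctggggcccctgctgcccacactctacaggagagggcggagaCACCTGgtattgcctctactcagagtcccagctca
Gzma: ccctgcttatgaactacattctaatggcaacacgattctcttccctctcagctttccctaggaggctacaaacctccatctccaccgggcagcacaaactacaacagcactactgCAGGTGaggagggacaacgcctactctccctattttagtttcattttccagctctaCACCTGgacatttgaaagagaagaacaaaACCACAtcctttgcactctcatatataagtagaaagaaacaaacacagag
Gzmb: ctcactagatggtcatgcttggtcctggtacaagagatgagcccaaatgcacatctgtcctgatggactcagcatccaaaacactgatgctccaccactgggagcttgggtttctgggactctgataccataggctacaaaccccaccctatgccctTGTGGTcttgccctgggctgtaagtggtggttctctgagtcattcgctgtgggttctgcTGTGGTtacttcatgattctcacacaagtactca

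The first comparison set the 2 models side by side, MDR against BDL without HDCA and MDR_H against BDL_H with it. Cd3d was called higher both in MDR and in MDR_H, the only one of the 10 genes called in both, and Cd4 averaged 4.70 times its BDL level in MDR. Of the 10 genes, 5 were called higher in MDR than in BDL, namely Cd3d, Cd3e, Cd4, Cd8a and Nkg7, and 3 in MDR_H than in BDL_H, namely Cd3d, Cd3g and Gzmb. None was called lower in either. A call is an adjusted p under 0.05 in limma on log2(FPKM + 1), with Benjamini-Hochberg adjustment over all genes tested. These counts come from the fit of 13874 genes with at least 0.1 FPKM in at least 3 libraries, in which all 10 could be tested. In it 15.8% of all genes were called higher in MDR than in BDL and 6.83% in MDR_H than in BDL_H, while 0.851% and 0.706% were called lower.

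The background matters because the median gene was also higher in the MDR groups. The median log2 difference over all genes was 0.22 for MDR against BDL and 0.17 for MDR_H against BDL_H, and the medians of the 10 were 0.51 and 0.62. In the stricter fit described next, the medians of all genes were 0.25 and 0.20. For MDR against BDL, 7 of the 10 genes lay above every BDL library in every MDR library, as did 39.3% of all genes, and none lay below, as 2.76% did. Between MDR_H and BDL_H it was 9 of 10, against 32.5% of all genes, and 0 below, against 4.04%. Only 6 of the 10 passed the stricter filter of at least 1 FPKM in at least 3 libraries, which left 10805 genes. Cd4 and Nkg7 reached that level in all libraries of MDR alone, Gzma and Gzmb in all of MDR_H alone, and Cd3g and Il2rb in all of both groups. For these 6, log2 differences and adjusted p-values below come from that stricter fit unless the other is named. For Cd3d, Cd3e, Cd8a and Klrb1c they come from the fit of 13874 genes. Unless limma-voom is named, log2 differences are on the log2(FPKM + 1) scale, which understates those of low genes. No call of the 6 differed between the 2 fits as described, but under other settings some did, and both are then given. The split of all calls depended on scaling: in the stricter fit 1630 genes were called higher and 116 lower in MDR than in BDL, and 795 and 101 in MDR_H than in BDL_H. With median-of-ratios scaling these were 640 and 486, and 333 and 372; with quantile normalization they were 548 and 393, and 380 and 339. With these scalings 3 and 2 of the 10 were called higher in MDR than in BDL, and 2 and 2 in MDR_H than in BDL_H. The direction of each of the 10 was kept in both model comparisons.

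**Figure D1:**
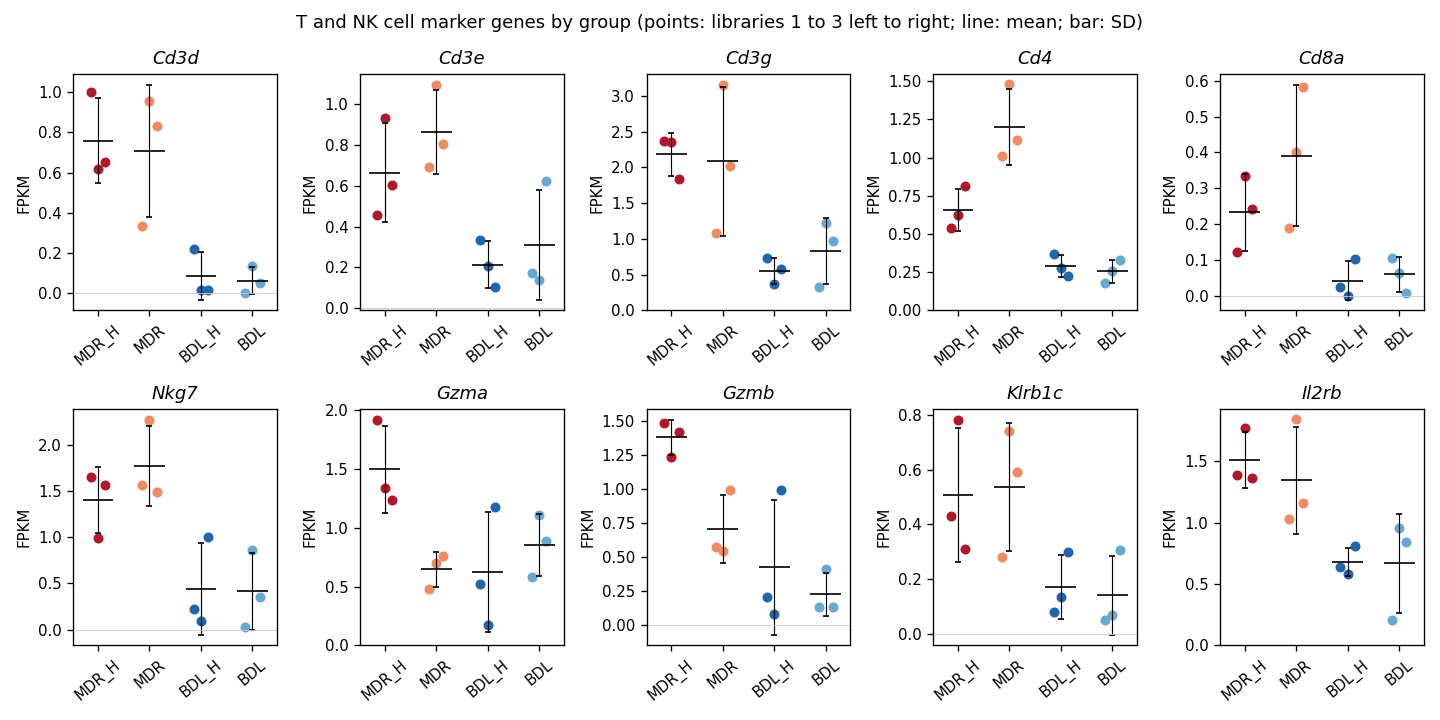
FPKM of each of the 10 genes (y axis, linear, own scale per panel) in MDR_H, MDR, BDL_H and BDL; points are the 3 libraries of a group, the line is the mean and the bar the SD. Cd4 is at 1.01 to 1.48 in MDR and at most 0.371 in BDL_H and BDL, while Gzma is at 1.24 to 1.92 in MDR_H and at 0.481 to 0.761 in MDR.

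Cd3d encodes the delta chain of CD3. Its FPKM was 1.00, 0.620 and 0.654 in MDR_H and 0.336, 0.954 and 0.834 in MDR. In BDL_H it was 0.221, 0.0166 and 0.0163, and in BDL 0, 0.132 and 0.0516, where the 0 allows up to 0.0522 FPKM, the worth of 3 reads. All 6 MDR and MDR_H libraries lay above all 6 BDL and BDL_H libraries, of which 5 had fewer than 10 reads. Mean FPKM in MDR was 11.6 times that in BDL, and in MDR_H 8.96 times that in BDL_H. With limma-voom the log2 differences were 3.99 ± 1.04 and 3.85 ± 0.98. On the log2(FPKM + 1) scale Cd3d rose by 0.67 ± 0.14 (log2, SE) in MDR over BDL (limma adjusted p = 0.0120). There it rose by 0.70 ± 0.14 in MDR_H over BDL_H (0.0199). The first call stood under 20 of 21 other settings and ended without MDR replicate 2 (adjusted p = 0.0559). The second stood under 17 of 21 and ended without BDL_H replicate 2, BDL_H replicate 3, MDR_H replicate 1 or MDR_H replicate 2, with adjusted p up to 0.0698.

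Cd3g encodes the gamma chain and was the highest of the 3 CD3 genes per length in all 12 libraries. It read 2.37, 2.35 and 1.83 FPKM in MDR_H and 1.08, 3.16 and 2.02 in MDR. BDL_H libraries were at 0.729, 0.367 and 0.579, and BDL libraries at 0.324, 1.22 and 0.967. MDR_H lay above BDL_H throughout, whereas MDR replicate 1 fell inside the BDL range. Cd3g rose by 1.03 ± 0.25 in MDR_H over BDL_H (limma adjusted p = 0.0322) and differed by 0.72 ± 0.25 in MDR from BDL (0.0661). The call ended with limma-voom and without MDR replicate 3 or any 1 of the 6 BDL_H and MDR_H libraries, with adjusted p up to 0.105 (0.106 in the fit of 13874 genes).

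Cd3e encodes the epsilon chain, which pairs with both other chains. Its FPKM was 0.458, 0.932 and 0.606 in MDR_H and 0.694, 1.09 and 0.806 in MDR. It was 0.334, 0.205 and 0.101 in BDL_H and 0.174, 0.136 and 0.622 in BDL. The groups did not overlap in either pair, and BDL replicate 3 came closest to MDR. Cd3e rose by 0.52 ± 0.15 in MDR over BDL (limma adjusted p = 0.0382), a call that ended under 13 of 21 other settings, among them leaving out BDL replicate 1 or 2, MDR replicate 2 or 3, or MDR_H replicate 3, with adjusted p up to 0.294. Its difference in MDR_H from BDL_H was 0.45 ± 0.15 (0.0875).

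The 3 CD3 genes summed to 3.83, 3.91 and 3.09 FPKM in MDR_H and 2.11, 5.21 and 3.66 in MDR, against 1.28, 0.589 and 0.697 in BDL_H and 0.498, 1.49 and 1.64 in BDL. Every MDR and MDR_H library was above every BDL and BDL_H library. Ptprc, the CD45 phosphatase of all leukocytes, was not called in either model comparison, but ran the same way in its means (4.40 ± 1.07 FPKM in MDR_H, 5.19 ± 1.84 in MDR, 3.16 ± 1.88 in BDL_H and 2.47 ± 1.44 in BDL). Divided by the FPKM of Ptprc, the CD3 sum was 0.929, 0.700 and 0.882 in MDR_H, 0.598, 0.727 and 0.751 in MDR, 0.435, 0.421 and 0.136 in BDL_H and 0.601, 0.484 and 0.467 in BDL. On that scale MDR_H still lay above BDL_H, while MDR and BDL overlapped.

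Cd4, the co-receptor of helper T cells, had the smallest adjusted p of the 10. Its FPKM was 0.538, 0.625 and 0.811 in MDR_H and 1.01, 1.48 and 1.11 in MDR. BDL_H libraries were at 0.371, 0.274 and 0.228 and BDL libraries at 0.176, 0.259 and 0.330. The MDR libraries were above all 9 others, and the MDR_H libraries above all BDL_H and BDL libraries. Cd4 rose by 0.81 ± 0.10 in MDR over BDL in the fit of 13874 genes (limma adjusted p = 0.00187). In the stricter fit, which Cd4 entered only through the MDR libraries, the rise was 0.81 ± 0.12 (0.00293). The call stood under 21 of 22 other settings, all 12 single-library omissions among them. It ended with quantile normalization in the stricter fit (0.0718), but stood under all 20 settings tried in the fit of 13874 genes, quantile normalization included (limma adjusted p = 0.00704). In MDR_H against BDL_H the difference was 0.36 ± 0.12 (0.0804).

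Cd8a, the alpha chain of the co-receptor of cytotoxic T cells, was the lowest of the 10. It read 0.121, 0.334 and 0.243 FPKM in MDR_H and 0.189, 0.401 and 0.583 in MDR. In BDL_H it was 0.0247, 0 and 0.103 and in BDL 0.106, 0.0638 and 0.00832, the 0 allowing up to 0.0253 FPKM. The MDR groups lay above the BDL groups, which rested on 0 to 13 reads a library. Cd8a rose by 0.38 ± 0.10 in MDR over BDL (limma adjusted p = 0.0273), a call that ended under 8 of 21 other settings, among them leaving out BDL replicate 2 or 3 or MDR replicate 2 or 3, and differed by 0.24 ± 0.10 in MDR_H from BDL_H (0.152).

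Some mouse dendritic cells also carry Cd4 or Cd8a, and their markers moved with these genes. The 8 dendritic genes summed to 9.07 to 12.5 FPKM in MDR_H, 10.2 to 16.7 in MDR, 1.53 to 5.17 in BDL_H and 1.32 to 4.83 in BDL. Of these 8, 7 were called higher in MDR than in BDL (15.8% of all genes were) and 4 in MDR_H than in BDL_H (6.83%). In BDL replicate 1, 1 of the 8 was at 0. Their part in the Cd4 and Cd8a values was not tested.

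Nkg7 encodes a membrane protein of the granules of NK and cytotoxic T cells. Its FPKM was 1.65, 0.988 and 1.56 in MDR_H and 1.56, 2.27 and 1.48 in MDR. It was 0.222, 0.0925 and 1.00 in BDL_H and 0.0314, 0.860 and 0.352 in BDL. MDR lay above BDL throughout, while BDL_H replicate 3 was just above the lowest MDR_H library. Nkg7 rose by 1.00 ± 0.26 in MDR over BDL (limma adjusted p = 0.0258), which ended under 8 of 22 other settings, among them leaving out BDL replicate 1, MDR replicate 2 or MDR replicate 3. In the fit of 13874 genes it ended under 4 of 20, of which 2 left out BDL replicate 1 or MDR replicate 2. In MDR_H against BDL_H the difference was 0.78 ± 0.26 (0.0810).

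Gzma and Gzmb encode granzymes A and B, the serine proteases of those granules. Gzma was at 1.92, 1.34 and 1.24 FPKM in MDR_H and 0.481, 0.698 and 0.761 in MDR. BDL_H libraries read 0.526, 0.171 and 1.18, and BDL libraries 0.579, 1.10 and 0.886. Gzma was the only gene of the 10 whose mean was lower in MDR than in BDL (log2 difference -0.17 ± 0.21, limma adjusted p = 0.578). With quantile normalization it was called lower there in the stricter fit (limma adjusted p = 0.0429) but not in the fit of 13874 genes (0.0898). In MDR_H against BDL_H it differed by 0.66 ± 0.21 (limma adjusted p = 0.0735). Gzmb was at 1.48, 1.24 and 1.42 FPKM in MDR_H and 0.579, 0.548 and 0.994 in MDR, and at 0.204, 0.0829 and 0.996 in BDL_H and 0.135, 0.413 and 0.138 in BDL. MDR_H was above the other 9 libraries for both granzymes. Gzmb rose by 0.79 ± 0.20 in MDR_H over BDL_H in the fit of 13874 genes (limma adjusted p = 0.0385). There the call ended under 12 of 20 other settings, of which 6 removed 1 library. In the stricter fit, which Gzmb entered only through the MDR_H libraries, the rise was 0.79 ± 0.21 (0.0439). That call ended under 18 of 22 other settings, 10 of them the removal of 1 library, with adjusted p up to 0.138. In MDR against BDL, Gzmb differed by 0.47 ± 0.21 (0.134).

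Klrb1c encodes NK1.1, an NK cell receptor that not every mouse strain shows on its cells. It was at 0.432, 0.783 and 0.308 FPKM in MDR_H and 0.279, 0.741 and 0.591 in MDR. In BDL_H it was 0.0782, 0.133 and 0.300, and in BDL 0.0485, 0.0664 and 0.307. BDL replicate 3 lay inside the MDR range, and BDL_H replicate 3 just below the lowest MDR_H library. Klrb1c was not called in either comparison (log2 difference 0.43 ± 0.14, limma adjusted p = 0.0638, in MDR from BDL, and 0.36 ± 0.14, adjusted p = 0.139, in MDR_H from BDL_H). Il2rb, the beta chain shared by the receptors of interleukin 2 and interleukin 15, the cytokine that NK cells need, was at 1.39, 1.78 and 1.37 in MDR_H and 1.03, 1.84 and 1.16 in MDR. It was 0.640, 0.584 and 0.806 in BDL_H and 0.210, 0.959 and 0.844 in BDL. The groups of each pair did not overlap, yet neither difference was called (0.50 ± 0.19, limma adjusted p = 0.0870, and 0.58 ± 0.19, adjusted p = 0.0773). Il2rb entered that stricter fit only through the MDR and MDR_H libraries. In the fit of 13874 genes neither was called (limma adjusted p = 0.0769 and 0.0726).

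**Figure D2:**
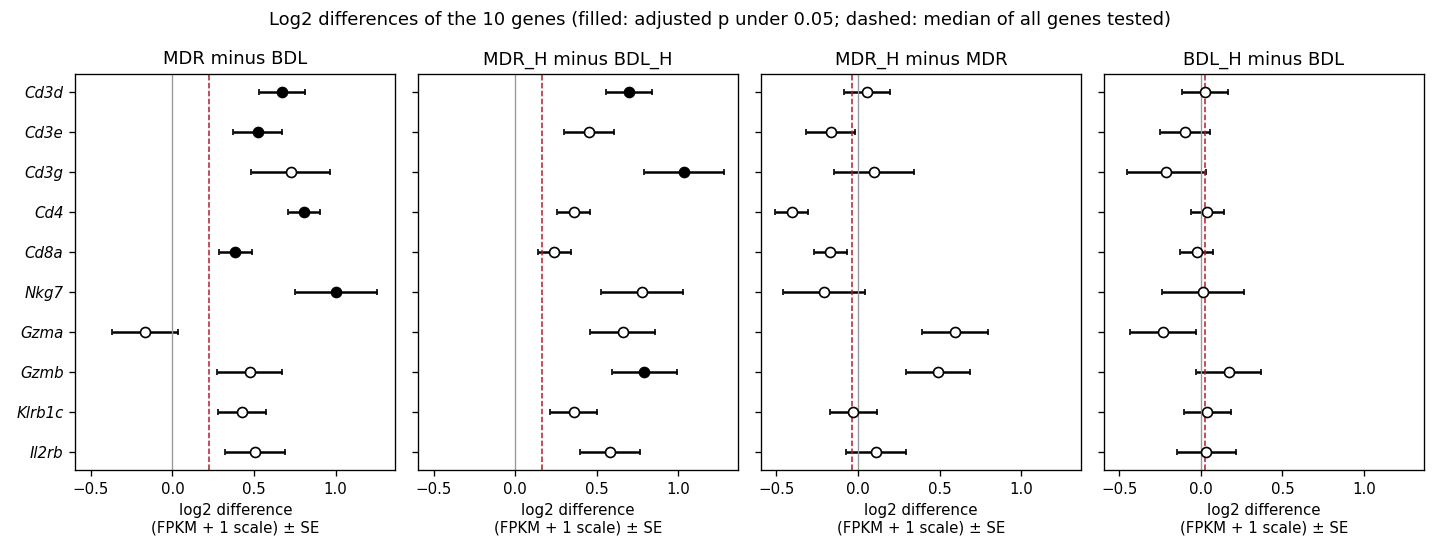
Log2 differences on the FPKM + 1 scale (x axis, with SE bars) of the 10 genes in 4 comparisons, from the fit of 13874 genes; filled points have an adjusted p under 0.05 and the dashed line is the median of all genes tested. Of the 10 points, 5 are filled for MDR minus BDL and 3 for MDR_H minus BDL_H, and none in the 2 HDCA comparisons.

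Nkg7, Gzma, Gzmb and Klrb1c summed to 5.49, 4.35 and 4.53 FPKM in MDR_H, 2.90, 4.25 and 3.83 in MDR, 1.03, 0.479 and 3.48 in BDL_H and 0.794, 2.44 and 1.68 in BDL. BDL_H replicate 3 was the one BDL-model library whose sum reached into the MDR range. Its CD3 sum of 0.697 was below that of all MDR and MDR_H libraries, and its ratio of granzyme to CD3 FPKM, 3.12, was the highest of the 12 (range of the others 0.239 to 1.43). The 2 libraries that stood apart, BDL replicate 1 and BDL_H replicate 2, had the lowest sums of all 10 genes, 1.78 and 1.93 FPKM. Without both of them, 4 of the 10 were called higher in MDR than in BDL and 3 in MDR_H than in BDL_H. MDR replicate 1, the MDR library with Y-linked reads, lay above all 3 BDL libraries for 7 of the 10 genes (52.5% of all genes did). It also lay below the other 5 MDR and MDR_H libraries for 5 of the 10 (24.0% of all genes did). Without it, 7 and 4 were called. Other single libraries moved the counts more. In MDR against BDL the count was 3 without BDL replicate 1, BDL replicate 2 or MDR replicate 3, and 1 without MDR replicate 2. In MDR_H against BDL_H it was 6 without BDL replicate 1, 1 without BDL_H replicate 1 or MDR_H replicate 3, and 0 without BDL_H replicate 2, MDR_H replicate 1 or MDR_H replicate 2. Calls over all genes also moved widely, so such moves were not particular to the 10. In the stricter fit with 1 library left out they ran from 489 to 2346 in MDR against BDL (1746 with all libraries). In MDR_H against BDL_H they ran from 167 to 1550 (896 with all libraries). Without both libraries that stood apart they were 2231 and 1274.

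**Figure D3:**
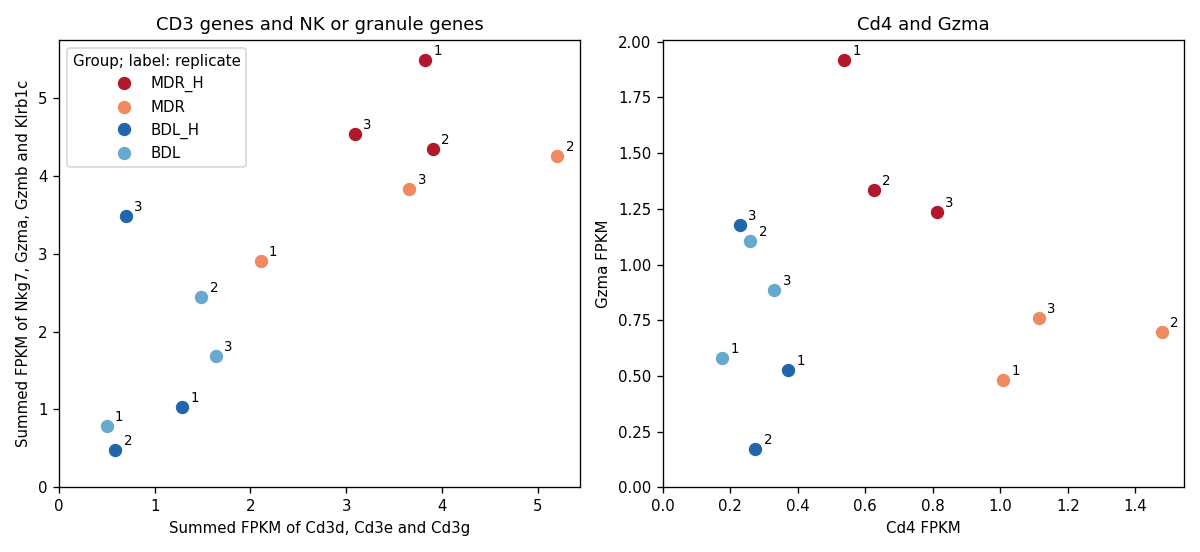
Left, summed FPKM of Cd3d, Cd3e and Cd3g (x axis) against that of Nkg7, Gzma, Gzmb and Klrb1c (y axis) in the 12 libraries; right, Cd4 against Gzma FPKM; colours are groups and labels replicates. The CD3 sums of MDR_H and MDR are 2.11 or more and those of BDL_H and BDL 1.64 or less, while on the right MDR_H has Cd4 below and Gzma above MDR.

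Other genes of the same cells were read from lists. For comparison with each list, 15.8% of all genes were called higher in MDR than in BDL and 6.83% in MDR_H than in BDL_H. Of 23 genes of T cell receptor signalling in the table, 21 were tested, and 6 were called higher in MDR than in BDL and 6 in MDR_H than in BDL_H, with 0 lower (medians 0.29 and 0.23, against 0.22 and 0.17 for all genes). The pseudocount of 1 understates differences of the low genes among them. In the stricter fit 7 were tested, with medians of 0.69 and 0.55, against 0.25 and 0.20 for all genes. A gene can enter that fit through its higher group alone. Lck, the kinase that starts the signal, averaged 1.44 ± 0.354 FPKM in MDR and 0.206 ± 0.120 in BDL (SD, n = 3 each), a rise of 1.01 ± 0.15 (log2, SE; limma adjusted p = 0.00329). Thy1, a surface protein of mouse T cells also found on other cells, averaged 4.72 ± 1.19 in MDR and 0.979 ± 0.510 in BDL (1.54 ± 0.24, adjusted p = 0.00400). Prkcq, a kinase downstream of the receptor, averaged 1.02 ± 0.110 in MDR and 0.227 ± 0.158 in BDL (0.73 ± 0.14, adjusted p = 0.00770). The T cell receptor constant genes Trac, Trbc1, Trbc2, Trdc, Tcrg-C1 and Tcrg-C2 were not analysed here.

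Of 30 NK and cytotoxic genes, 25 were tested. Of these, 9 were called higher in MDR than in BDL (15.8% of all genes were) and 5 in MDR_H than in BDL_H (6.83%). The list medians were 0.27 and 0.21. In the stricter fit only 4 were tested, with medians of 1.04 and 1.00, under the same limit. Ccl5, a chemokine of activated T and NK cells, averaged 7.46 ± 2.35 FPKM in MDR and 2.17 ± 1.42 in BDL (SD, n = 3 each; log2 difference 1.47 ± 0.30, limma adjusted p = 0.0100). Xcl1, a chemokine of NK and cytotoxic T cells, averaged 2.11 ± 0.928 in MDR and 0.258 ± 0.361 in BDL (1.30 ± 0.28, adjusted p = 0.0133). Itga1, an integrin of liver-resident NK and innate lymphoid cells that other cells also make, averaged 5.56 ± 1.09 in MDR and 2.84 ± 0.603 in BDL (0.77 ± 0.16, adjusted p = 0.0123). Xcr1, the receptor of the Xcl1 product on cross-presenting dendritic cells, was itself called higher in MDR (0.61 ± 0.08, limma adjusted p = 0.00246) and in MDR_H (0.51 ± 0.08, 0.00907). Xcr1 was singled out after its values were seen.

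The homing list held 14 tested genes, of which 5 were called higher in MDR than in BDL and 2 in MDR_H than in BDL_H. Cxcr6, a chemokine receptor of liver-resident lymphocytes, averaged 1.33 ± 0.610 FPKM in MDR and 0.108 ± 0.0507 in BDL (SD, n = 3 each). It rose by 1.03 ± 0.17 in MDR over BDL in the fit of 13874 genes (log2, SE; limma adjusted p = 0.00432). In the stricter fit, which a gene can enter through its higher group alone, the rise was 1.03 ± 0.18 (0.00543). Cxcr4, a receptor carried by many leukocytes, was 0.99 ± 0.26 higher in MDR than in BDL on the log2 scale (limma adjusted p = 0.0294). In the IL-2, IL-7 and IL-15 list 2 of 12 genes were called in each comparison, which is close to the share of all genes called in MDR. Named after their values were seen, they were Il7r, the interleukin 7 receptor, and Stat5b, a transcription factor below these receptors that hepatocytes also use. Stat5b averaged 12.7 ± 0.544 FPKM in MDR and 7.39 ± 0.676 in BDL (0.71 ± 0.16, limma adjusted p = 0.0138), and Stat5a and Il2rg were not called (adjusted p = 0.0657 and 0.136). Of 10 tested regulatory and checkpoint genes, 2 were called higher in MDR (Lag3, an inhibitory receptor, and Tnfrsf18, which encodes GITR) and 1 in MDR_H (Tnfrsf18), likewise named after their values were seen. These shares are near the 15.8% and 6.83% of all genes called higher. None of 5 gamma-delta or innate-like genes was called.

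Markers of other blood cells were read as well, and their part in the results above was not tested. For comparison with the counts below, 15.8% of all genes were called higher in MDR than in BDL and 6.83% in MDR_H than in BDL_H. Called lower were 0.851% and 0.706%. The 10 pan-leukocyte genes summed to 152 to 194 FPKM in MDR_H, 132 to 245 in MDR, 50.2 to 169 in BDL_H and 48.3 to 123 in BDL, with 0 of 10 called in either comparison. B cell genes summed to 5.70 to 15.4 FPKM in MDR_H, 7.02 to 18.6 in MDR, 0.771 to 2.98 in BDL_H and 0.836 to 2.78 in BDL, with 2 of 6 tested genes called in MDR (Cd79a and Cd79b, the signalling chains of the B cell receptor) and 0 in MDR_H. Of 12 macrophage genes, 3 were called in MDR (C1qa, Cx3cr1 and Gpnmb) and 1 in MDR_H (C1qa). Their sums overlapped, at 392 to 435 FPKM in MDR_H, 322 to 480 in MDR, 191 to 521 in BDL_H and 169 to 426 in BDL. Of 7 tested neutrophil genes none was called higher, and Retnlg was lower in MDR_H than in BDL_H, at 1.09 ± 0.260 FPKM in MDR_H and 6.47 ± 2.77 in BDL_H (-1.76 ± 0.32, limma adjusted p = 0.0132). No gene of the 9 hepatocyte genes was called higher. Apoa1, an apolipoprotein, was called lower in MDR than in BDL in the stricter fit, at 6867 ± 951 FPKM in MDR and 11533 ± 2652 in BDL (-0.73 ± 0.20, adjusted p = 0.0306).

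**Figure D4:**
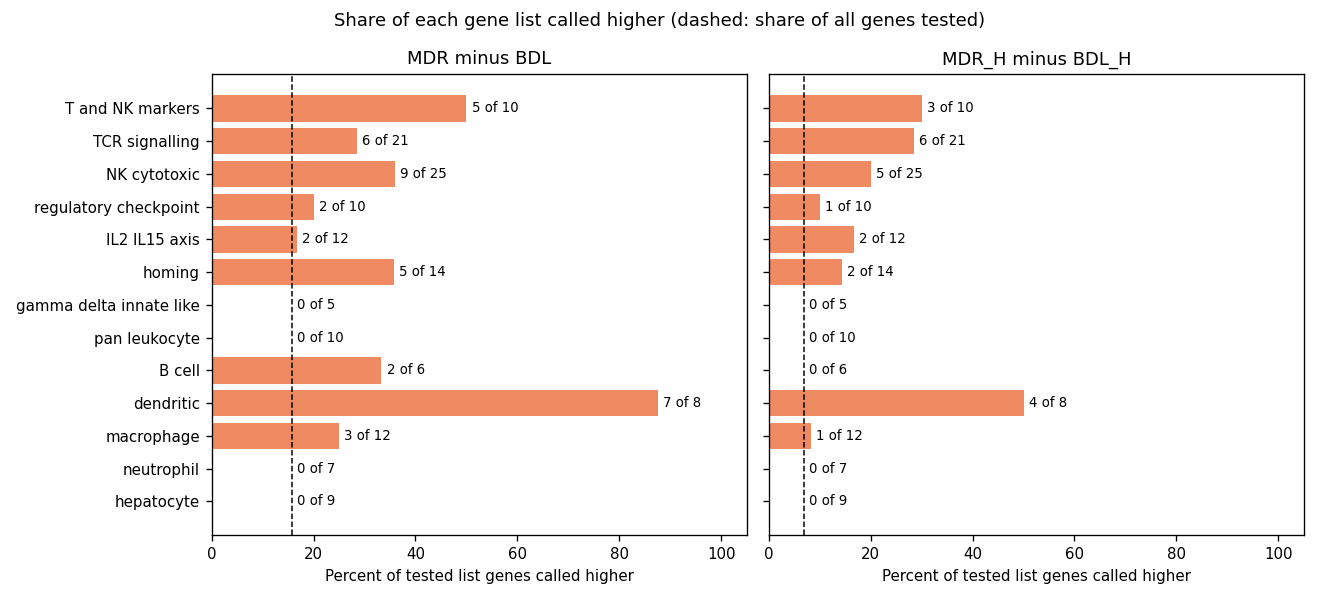
Percent of the tested genes of each list called higher (x axis; limma adjusted p under 0.05, fit of 13874 genes), with counts beside the bars; left, MDR minus BDL, right, MDR_H minus BDL_H; the dashed line is the share of all genes tested, 15.8 and 6.83%. T and NK markers stand at 5 of 10 and 3 of 10, and dendritic genes at 7 of 8 and 4 of 8.

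The next comparison asked what HDCA changed in the MDR model. No gene was called (0 of 10805 by limma, 0% of genes in either fit, 61 at an unadjusted p under 0.05, and 0 by limma-voom), so none of the 10 was. The granzymes and Cd4 stood in opposite directions without passing the test. Gzma averaged 1.50 ± 0.369 FPKM in MDR_H and 0.647 ± 0.147 in MDR (SD, n = 3 each; log2 difference 0.60 ± 0.21, limma unadjusted p = 0.0154, adjusted p = 1.00). Gzmb averaged 1.38 ± 0.128 in MDR_H and 0.707 ± 0.249 in MDR (0.49 ± 0.21, limma unadjusted p = 0.0375, adjusted p = 1.00). All 3 MDR_H libraries were above all 3 MDR libraries for both, as for 1.47% of all genes. Cd4 averaged 0.658 ± 0.139 in MDR_H and 1.20 ± 0.246 in MDR (-0.41 ± 0.12, limma unadjusted p = 0.00535, adjusted p = 1.00). All 3 MDR_H libraries were below all 3 MDR libraries, as for 4.58% of all genes. These differences kept their sign without each library in turn, at 0.48 to 0.67 for Gzma, 0.42 to 0.61 for Gzmb and -0.47 to -0.32 for Cd4.

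For the other 7 genes MDR_H and MDR overlapped. Within the 3 pairs of same-numbered libraries, Cd3e and Cd8a were lower in MDR_H each time, as were 17.7% of all genes, and with the pairs as a block their differences were -0.17 ± 0.16 (limma unadjusted p = 0.317, adjusted p = 1.00) and -0.17 ± 0.10 (limma unadjusted p = 0.118, adjusted p = 1.00). Without the block, the differences of the 7 ran from -0.21 ± 0.26 for Nkg7 to 0.11 ± 0.19 for Il2rb, and the 95% intervals of all 7 contained 0. The interval was -0.26 to 0.36 for Cd3d, -0.44 to 0.64 for Cd3g and -0.50 to 0.16 for Cd3e. These bounds are on the log2(FPKM + 1) scale, which understates differences of low genes. With limma-voom the interval was -1.19 to 1.53 for Cd3d, -0.80 to 1.15 for Cd3g and -1.50 to 0.69 for Cd3e. Changes of the CD3 genes within these wider bounds were therefore not excluded with 3 libraries a group. Granzyme FPKM per CD3 FPKM was 0.890, 0.659 and 0.861 in MDR_H and 0.503, 0.239 and 0.480 in MDR, without overlap. Nkg7 did not share this: its level per Cd3g was 0.697, 0.419 and 0.850 in MDR_H and 1.45, 0.718 and 0.735 in MDR. The ratio of Cd4 to Cd8a overlapped, at 4.44, 1.87 and 3.34 in MDR_H and 5.33, 3.68 and 1.91 in MDR. These ratios were not tested.

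HDCA after bile duct ligation gave no call among the 10 genes either (0 of 10805 by limma, 0% of genes in either fit, 243 at an unadjusted p under 0.05, and 0 by limma-voom). BDL_H and BDL overlapped for all 10 (of all genes, 3.90% lay above and 1.69% below without overlap). Log2 differences ran from -0.23 ± 0.21 for Gzma and -0.21 ± 0.25 for Cd3g to 0.17 ± 0.21 for Gzmb, and the other 7 lay between -0.10 and 0.04. On the log2(FPKM + 1) scale the narrowest 95% intervals were those of Cd8a, -0.24 to 0.20, and Cd4, -0.22 to 0.30. The widest there was that of Nkg7, -0.55 to 0.58, since its level ran over 0.0925 to 1.00 FPKM in BDL_H and 0.0314 to 0.860 in BDL. A pseudocount of 1 narrows the intervals of low genes, so a narrow one does not mark a well measured gene. With limma-voom the intervals were -3.82 to 1.87 for Cd8a and -0.73 to 1.13 for Cd4. BDL_H replicate 3 was the highest BDL_H library for Nkg7, Gzma, Gzmb, Klrb1c, Il2rb and Cd8a. It was the lowest for Cd3e and Cd4, in the middle for Cd3g, and had 1 read of Cd3d, as BDL_H replicate 2 did. Without it the Gzmb difference was -0.10.

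The HDCA effects of the models were then set against each other, as the difference in MDR minus that in BDL. None was called (limma, 0 of 10805, 200 at an unadjusted p under 0.05; 0 by limma-voom). Among the 10, the ends were Gzma, at 0.82 ± 0.30 (limma unadjusted p = 0.0171, adjusted p = 1.00), and Cd4, at -0.45 ± 0.17 (limma unadjusted p = 0.0212, adjusted p = 1.00). The other 8 lay between -0.22 for Nkg7 and 0.32 for Gzmb. No sign of these 2 ends changed without any 1 library, with ranges of 0.61 to 1.06 and -0.51 to -0.36.

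Genes whose levels followed the T and NK sums most closely were ranked by Pearson's r of log2(FPKM + 1) over the 12 libraries, among 10622 genes, as a description: the libraries share groups, depth and the 2 that stand apart. For the CD3 sum these were H2-DMb1, an MHC class II peptide loader (r = 0.974, Spearman's rho = 0.979), Mras, a small GTPase (0.973, 0.937), Mturn (0.973, 0.972), Cst3, cystatin C (0.969, 0.958), and Capsl (0.968, 0.972). For the sum of Nkg7, Gzma, Gzmb and Klrb1c they were Arl8b, a small GTPase of lysosomes (r = 0.960, rho = 0.923), Crp, C-reactive protein (0.956, 0.951), Sp140, a nuclear body protein of leukocytes (0.953, 0.951), Crnkl1, a splicing factor (0.952, 0.888), and Irgm2, an interferon-induced GTPase (0.951, 0.860). With group means removed, r was 0.849 to 0.963 for the first 5 and 0.895 to 0.908 for the second 5.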

How the data were processed

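Per the labels' protocols, liver RNA was taken up in TRIzol and sequenced as polyA libraries (VAHTS Universal V6). CASAVA 1.8, fastp, HISAT2 2.0.5, featureCounts 1.5.0-p3, DESeq2 1.20.0 and GRCm38 (mm10) are named in the submitters' processing notes, without their order; no source used here gives the annotation or the strand setting. The authors deposited 1 table of FPKM values per gene and library. Reads were recovered from the steps of these values: for 99.988% of genes all 12 values came out whole, within 0.02 of a read, Fn1 and Mmp9 being the exceptions. Of the table, 2153 genes had fewer than 10 reads in every library.

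Values were tested as log2(FPKM + 1) with limma 3.58.1 with trend (R 4.3.3), with 1 mean per group and all 12 libraries in the fit (8 residual degrees of freedom). Tests were two-sided and adjusted over all genes tested. A pseudocount of 1 understates the log2 differences of low genes such as these. FPKM is relative to library depth, so what abundant genes take lowers the rest. Whether hepatocyte genes did so between these groups was not tested. On simulated reads for MDR against BDL (10804 genes), 57 of 100 genes changed 2-fold and 90 of 100 changed 4-fold were recovered, with 9 false calls. The changed genes were drawn at random from those passing the stricter filter, which only 6 of the 10 markers passed. The simulation held no shift of the median gene and no libraries that stood apart. It therefore does not give the recovery or false calls for the 10 markers. No pair of libraries agreed within sampling noise.

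The genes and lists were chosen with earlier results of these data known. All 10 genes are given in each comparison. Genes named from the other lists are among the 3 with the smallest p in the comparison with most calls. Both were read in the stricter fit (at least 1 FPKM in at least 3 libraries), so the order can differ in the fit of 13874 genes. Lists with no call name none, except for Ptprc, used as a scale. Xcr1, Il7r, Lag3 and Tnfrsf18 are outside this rule and were named after their values were seen. The genes the rule gives for the dendritic list are not named. For likeness, the 5 highest genes are given, unnamed predicted genes being passed over. Motifs were chosen with the sequences at hand.

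Titles share replicate numbers across groups. Deviations from the group means of same-numbered libraries correlated at 0.438, 0.312 and 0.548 between MDR_H and MDR, so those numbers were taken as pairs. This choice rests on the same values that were then tested, and the labels leave the meaning of replicate numbers open. Summed Y-linked FPKM was 20.1 in MDR replicate 1 and 0.016 in MDR_H replicate 1, so that pair was not alike in this respect. Results with the block are therefore conditional on an unchecked pairing. In the other comparisons correlations ran from -0.430 to 0.431, and the numbers were not taken as pairs. Alternatives were another pseudocount (0.1), other filters, median-of-ratios and quantile scaling, array weights, limma-voom on recovered reads, fits on the compared libraries alone, a replicate block, and leaving out libraries. A gene counted in the homing list is not reported here by name.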

Additional observations from a re-analysis of the deposited data

How the results depend on the processing

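Every difference of the 10 genes between the models kept its sign under all alternatives tried; what moved were the counts of calls. Genes called in MDR against BDL (1746) came to 1126 with median-of-ratios scaling, 941 with quantile normalization, 4947 with array weights and 729 with the compared libraries alone. They ran from 489 to 2346 with 1 library left out. In MDR_H against BDL_H (896) they came to 2750 with array weights, 542 with the compared libraries alone and 589 with the replicate block, and ran from 167 to 1550 with 1 library left out. Of the 10 markers, calls in MDR against BDL (5) came to 3 with median-of-ratios scaling, 2 with quantile normalization, 8 with array weights, 2 with limma-voom and 3 with the compared libraries alone, and ran from 1 to 7 with 1 library left out. Calls in MDR_H against BDL_H (3) came to 2 with median-of-ratios scaling and 2 with quantile normalization. They came to 10 with array weights and 1 with limma-voom, and ran from 0 to 6 with 1 library left out. Array weights called 1 gene for HDCA in BDL. The cause of these moves was not tested.

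In the MDR model, where numbers were taken as pairs, the replicate block gave 0 calls for HDCA, as without it. Between the models, where they were not, it ended the call of Cd3e in MDR against BDL (adjusted p = 0.0575, limma). It ended that of Gzmb in MDR_H against BDL_H in the stricter fit (0.0519) but not in the fit of 13874 genes (0.0449), which gives the counts of markers above, and changed no other call of the 10 in these 2 comparisons. Quantile normalization called Gzma lower in MDR than in BDL and ended the call of Cd4 there in the stricter fit (limma adjusted p = 0.0429 and 0.0718), but did neither in the fit of 13874 genes (0.0898 and 0.00704).

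Small HDCA differences, none called, changed sign. In BDL, quantile normalization gave -0.051 for Cd4, -0.085 for Nkg7 and -0.051 for Il2rb; array weights gave 0.083 for Cd3e, -0.33 for Nkg7 and -0.19 for Il2rb. Leaving out both BDL replicate 1 and BDL_H replicate 2 gave 0.037 for Cd8a, -0.020 for Nkg7 and -0.14 for Il2rb. In MDR, quantile normalization gave 0.013 for Klrb1c and array weights -0.058 for Cd3d. With 1 library left out, the ranges in BDL were -0.060 to 0.075 for Cd3d, -0.19 to 0.067 for Cd3e, -0.0049 to 0.084 for Cd4, -0.065 to 0.0081 for Cd8a, -0.25 to 0.23 for Nkg7, -0.098 to 0.34 for Gzmb, -0.038 to 0.14 for Klrb1c and -0.18 to 0.16 for Il2rb. In MDR they were -0.11 to 0.16 for Cd3d, -0.16 to 0.34 for Cd3g and -0.16 to 0.068 for Klrb1c. Depth limits Cd3d and Cd8a most, with at most 13 reads in any BDL or BDL_H library.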
